A study of Drosophila melanogaster with 4 samples.

Results

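The 10 genes described here mark or serve glia, the supporting cells of the nervous system. They are *repo*, *gcm*, *moody*, *loco*, *Tret1-1*, *nrv2*, *wrapper*, *alrm*, *Eaat1* and *Gs2*, taken as the rows whose FlyBase identifier carries one of these symbols. All 10 were found among the 23932 features of the count files, and all 10 passed the filter on low counts that left 13082 features for testing. The libraries came from dissected brains of wandering third-instar (WL3) *Drosophila* larvae that carried *insc*-GAL4, which drives expression in neuroblasts and their progeny and is not restricted to glia. It expressed RNAi hairpins directed at *orb2* or, in controls, at the eye color gene *white*. Each genotype had 2 samples, and each sample was a pool of 60 brains collected in batches of 20. Values are counts scaled to a common library size (CPM) by edgeR's TMM method, which corrects for library composition.

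Glia of the larval brain fall into classes with separate tasks. Surface glia form the blood-brain barrier, cortex glia wrap neuroblasts and the cell bodies of neurons, and astrocyte-like and ensheathing glia fill or border the neuropil, where synapses lie. The transcription factor Gcm switches precursors to a glial fate and Repo, a homeodomain protein, then maintains it in nearly all glia outside the midline. Astrocyte-like glia clear glutamate from synapses with the transporter Eaat1, and glutamine synthetase turns glutamate into glutamine.

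The targeted gene went against the labels. *orb2* was at 105.3 and 53.6 CPM in samples 1 and 2 labelled *orb2* RNAi, against 17.1 and 15.3 CPM in those labelled *white* RNAi. Both libraries carrying the hairpin's name thus had more counts assigned to the target gene. Which transcripts gave these counts was not examined. Its log2 fold change was 2.29 (standard error 0.394, unadjusted p = 0.0027, adjusted p = 0.9998 by edgeR), and 14.8% of its exon bases are shared with *CG43783*. Every direction below follows the labels, and had the labels been exchanged, each fold change would have the opposite sign, which cannot be told from these files. Depth ran from 34.61 to 75.41 M counts. Together these counts exceed the total of reads that the paper reports, and the reason was not examined. Replicate samples were not alike. The spread of log2 ratios across the 10545 features that had 10 or more counts in all 4 libraries, as a median absolute deviation scaled to an SD, was 0.291 between the samples labelled *orb2* RNAi and 0.815 between those labelled *white* RNAi. Between the samples numbered 1 of both labels it was 0.336, and between those numbered 2 it was 0.631. Both larger spreads, 0.815 and 0.631, involve sample 2 labelled *white* RNAi, which was also the shallowest library at 34.61 M counts. In whole brains, fewer glial cells and less RNA per glial cell cannot be told apart.

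The brain libraries held clear glial transcripts. The 10 genes together had 76008 and 77142 counts in samples 1 and 2 labelled *orb2* RNAi and 57691 and 48311 counts in those labelled *white* RNAi. Their lowest single count was 897, for *moody* in sample 2 labelled *white* RNAi. If each count stands for a separate read, counting error was small beside the spread between samples. Levels of different genes were compared per kilobase of exon. *Gs2* (101.2 ± 55.3 CPM per kilobase, SD, n = 4 libraries) and *alrm* (95.8 ± 20.9) stood highest, followed by *nrv2* (72.0 ± 19.0), *wrapper* (59.3 ± 14.2), *Eaat1* (40.0 ± 6.15) and *repo* (32.1 ± 2.56). A step separated these from *gcm* (13.4 ± 3.09), *loco* (13.0 ± 1.22), *Tret1-1* (10.01 ± 2.69) and *moody* (9.22 ± 1.58). The ranges over the 4 libraries overlapped between every pair of neighbours in this order except *repo* and *gcm*, where the lowest *repo* value was 28.7 and the highest *gcm* value 16.8 CPM per kilobase.

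**Figure D1:**
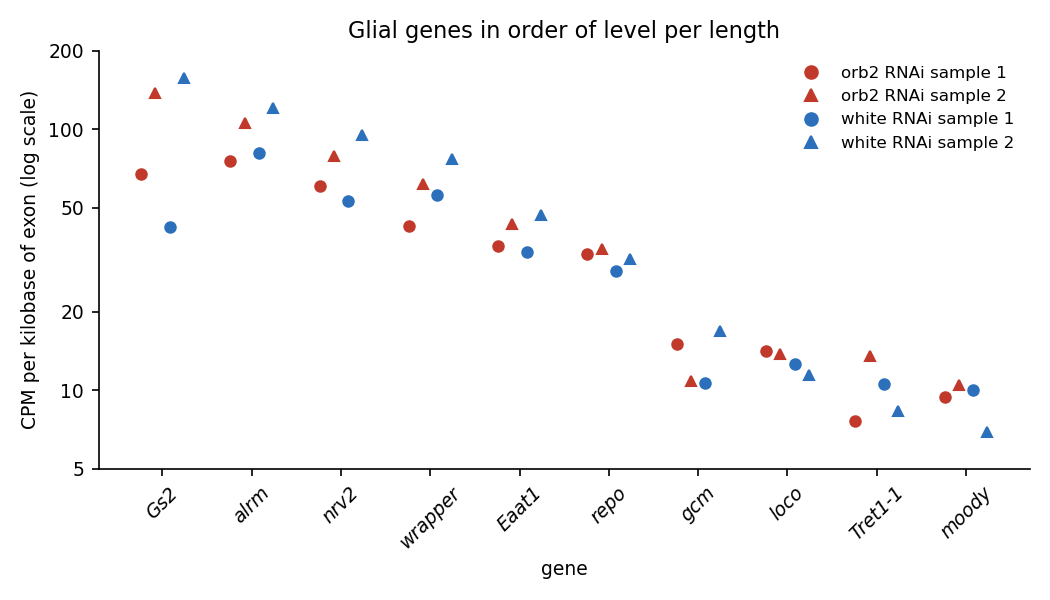
Level of each gene in CPM per kilobase of exon (log scale), with genes ordered by their mean over the 4 libraries; red marks libraries labelled *orb2* RNAi, blue those labelled *white* RNAi, circles sample 1 and triangles sample 2. The lowest *repo* value, 28.7, lies above the highest *gcm* value, 16.8, and *Gs2* spreads most, between 42.0 and 157.6.

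None of the 10 genes passed the test for a difference between the genotypes. By edgeR's quasi-likelihood test, where a call needs an adjusted p below 0.05 and a log2 fold change beyond 0.5 either way, 0 of the 10 were called higher and 0 lower under the *orb2* RNAi label. Over all 13082 features that test also called 0 higher (0.0%) and 0 lower (0.0%), and 598 features (4.57%) had an unadjusted p under 0.05, with 0 of the 10 genes among them. DESeq2 without shrinkage called 87 features higher (0.591%) and 40 lower (0.272%) of the 14724 that had an adjusted p in that fit, and again 0 of the 10. All 10 genes had an adjusted p of 0.9998 in edgeR's test. Their log2 fold changes, *orb2* RNAi over *white* RNAi, ran from -0.35 for *wrapper* to 0.23 for *moody*, with 5 above 0 and a median of 0.0038, beside 0.022 over all features. An exact permutation test of 2 against 2 libraries cannot go below p = 0.333 (two-sided), so none was run for single genes.

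**Figure D2:**
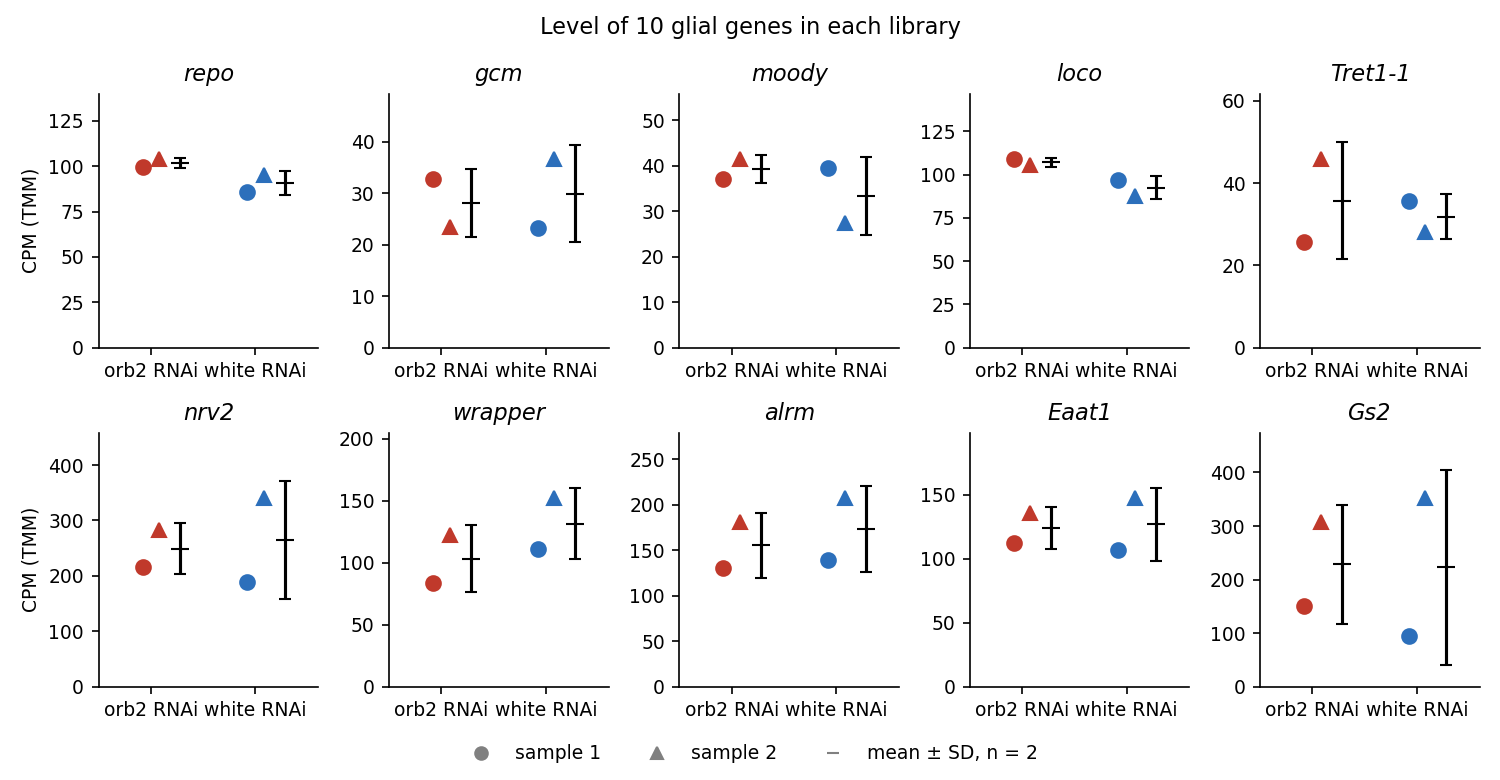
CPM of each gene in each library, with circles for sample 1, triangles for sample 2 and a bar for the mean ± SD of the 2 samples of a label; each vertical axis starts at 0. The samples labelled *orb2* RNAi lie above those labelled *white* RNAi only for *repo* and *loco*, and in *nrv2*, *wrapper*, *alrm*, *Eaat1* and *Gs2* both triangles lie above both circles.

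*repo* (FBgn0011701, chromosome 3R, 18236192 to 18239602, plus strand in BDGP6.54) was the steadiest of the 10. It was at 99.9 and 103.8 CPM in samples 1 and 2 labelled *orb2* RNAi, against 86.0 and 95.3 CPM in those labelled *white* RNAi. The groups did not overlap, but the gap was small. The means were 101.8 ± 2.80 and 90.6 ± 6.61 CPM (SD, n = 2 each). The log2 fold change was 0.17 (standard error 0.190, adjusted p = 0.9998 by edgeR). The highest *repo* value was 1.21 times the lowest, and 85.1% of the 6443 tested features averaging at least 20 CPM were at least as uneven over the 4 libraries. *repo* shares 6.11% of its exon bases with *CG7156*, so a small part of its count could belong to that gene.

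*loco* (FBgn0020278, 3R, 22619968 to 22639387, minus strand), which encodes a regulator of G-protein signalling that acts with Moody in surface glia, was nearly as even. It stood at 108.8 and 105.3 CPM in samples 1 and 2 labelled *orb2* RNAi, against 97.1 and 87.8 CPM in those labelled *white* RNAi. Again neither *orb2* RNAi value reached down to the *white* RNAi values, with means of 107.0 ± 2.47 and 92.4 ± 6.53 CPM (SD, n = 2 each). The log2 fold change was 0.21 (standard error 0.189, adjusted p = 0.9998 by edgeR), and it was 0.0013 once the dependence of level on exon length was removed in each library. *loco* is the longest of the 10, with 7671 bases of exon, and an antisense RNA covers 13.5% of them.

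Thus 2 of the 10 genes, *repo* and *loco*, were higher in each library labelled *orb2* RNAi than in each labelled *white* RNAi, which held for 18.5% of all features, and 0 of the 10 were below both, which held for 11.7%. The count of 2 is near its background share. Summed markers of eye disc, muscle and hemocytes (blood cells, values with *gcm* below) lay the same way, and those of fat body did not. The summed level of 5 eye disc genes was 301.9 and 332.4 CPM in samples 1 and 2 labelled *orb2* RNAi and 231.5 and 295.1 CPM in those labelled *white* RNAi, and that of 14 muscle genes was 1426 and 1266 CPM against 682 and 955 CPM. The sum of 6 fat body genes, at 543.7 and 2567 CPM against 4334 and 269.6 CPM, overlapped between the labels. Eye discs carry glia of their own, and the part of attached tissue in the *repo* and *loco* values was not tested.

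*gcm* (FBgn0014179, 2L, 9579498 to 9581745, minus strand) had no common direction. It was at 32.8 and 23.5 CPM in samples 1 and 2 labelled *orb2* RNAi, against 23.2 and 36.6 CPM in those labelled *white* RNAi. The higher sample was number 1 under one label and number 2 under the other. The means were 28.2 ± 6.58 and 29.9 ± 9.44 CPM (SD, n = 2 each). Its neighbour and paralog *gcm2*, which acts with *gcm* in glia and in neurons of the lamina, was lower and flat, at 12.9 and 14.0 CPM in the libraries labelled *orb2* RNAi and 13.7 and 14.2 CPM in those labelled *white* RNAi. *gcm* also has a known role in embryonic blood cells. The summed level of 5 hemocyte markers was 354.4 and 416.9 CPM against 331.7 and 328.0 CPM. The part of blood cells in the *gcm* values was not tested.

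*moody* and *Tret1-1*, genes of the blood-brain barrier, were the lowest of the 10 per kilobase. *moody* (FBgn0025631, X, 2044292 to 2050120, minus strand), a G-protein-coupled receptor needed for the barrier, was at 37.1 and 41.4 CPM in samples 1 and 2 labelled *orb2* RNAi, against 39.5 and 27.3 CPM in those labelled *white* RNAi. Only sample 2 labelled *white* RNAi stood apart, below the other 3. The log2 fold change of *moody* was 0.23 (standard error 0.270, adjusted p = 0.9998 by edgeR). *Tret1-1* (FBgn0050035, 2R, 11665768 to 11674782, plus strand) encodes a carrier that takes the blood sugar trehalose into perineurial glia. It was at 25.6 and 45.8 CPM in samples 1 and 2 labelled *orb2* RNAi, against 35.7 and 28.01 CPM in those labelled *white* RNAi. The extremes were both in libraries labelled *orb2* RNAi, and the log2 fold change was 0.16 (standard error 0.359). Its neighbour *Tret1-2* was at most at 1.94 CPM in any library.

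*nrv2* (FBgn0015777, 2L, 6789770 to 6798862, minus strand) encodes a β subunit of the sodium-potassium pump that is also part of septate junctions, the seals between surface glia. It was at 216.7 and 281.9 CPM in samples 1 and 2 labelled *orb2* RNAi, against 189.0 and 339.8 CPM in those labelled *white* RNAi. Sample 2 was the higher one under both labels, and the means of 249.3 ± 46.1 and 264.4 ± 106.6 CPM (SD, n = 2 each) differed by less than either spread. The paralog *nrv1*, which lies next to it, ran the other way, with 95.4 and 62.6 CPM against 94.8 and 82.6 CPM. *nrv3*, the neuronal paralog, held at 296.8 and 327.2 CPM against 329.0 and 328.2 CPM.

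*wrapper* (FBgn0025878, 2R, 22379637 to 22382675, plus strand), an immunoglobulin-family surface protein of cortex and midline glia, gave the lowest fold change of the 10. It was at 83.9 and 122.1 CPM in samples 1 and 2 labelled *orb2* RNAi, against 111.1 and 151.9 CPM in those labelled *white* RNAi. Each *orb2* RNAi value was below the *white* RNAi value of the same number, yet the groups overlapped. The means were 103.0 ± 27.0 and 131.5 ± 28.8 CPM (SD, n = 2 each), and the log2 fold change was -0.35 (standard error 0.294, adjusted p = 0.9998 by edgeR).

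*alrm* (FBgn0039332, 3R, 25381065 to 25382781, minus strand) encodes a leucine-rich repeat protein used as the standard marker of astrocyte-like glia. It was at 130.3 and 181.0 CPM in samples 1 and 2 labelled *orb2* RNAi, against 139.8 and 207.1 CPM in those labelled *white* RNAi. *Eaat1* (FBgn0026439, 2L, 9333567 to 9341925, plus strand) was at 112.3 and 136.0 CPM against 106.5 and 147.3 CPM in the same order. In both genes sample 2 exceeded sample 1 under both labels, and the genotype means nearly coincided for *Eaat1*, at 124.1 ± 16.8 and 126.9 ± 28.8 CPM (SD, n = 2 each). The log2 fold changes were -0.16 (standard error 0.302) for *alrm* and -0.03 (standard error 0.253) for *Eaat1*.

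*Gs2* (FBgn0001145, X, 11422832 to 11430197, plus strand), the cytosolic glutamine synthetase, varied most. It was at 150.2 and 307.4 CPM in samples 1 and 2 labelled *orb2* RNAi, against 93.8 and 351.6 CPM in those labelled *white* RNAi. The samples numbered 2 were far above those numbered 1, and the genotypes were not apart. The means were 228.8 ± 111.1 and 222.7 ± 182.3 CPM (SD, n = 2 each), and the log2 fold change was 0.04 (standard error 0.717, adjusted p = 0.9998 by edgeR). The highest value was 3.75 times the lowest, and 2.58% of the 6443 features averaging at least 20 CPM were at least as uneven. *Gs1*, the mitochondrial glutamine synthetase, stayed within 85.4 to 109.8 CPM and was lower in sample 2 under both labels. Per kilobase, *Gs2* over *Gs1* was therefore 1.61 and 3.87 in samples 1 and 2 labelled *orb2* RNAi, against 0.918 and 4.20 in those labelled *white* RNAi.

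**Figure D3:**
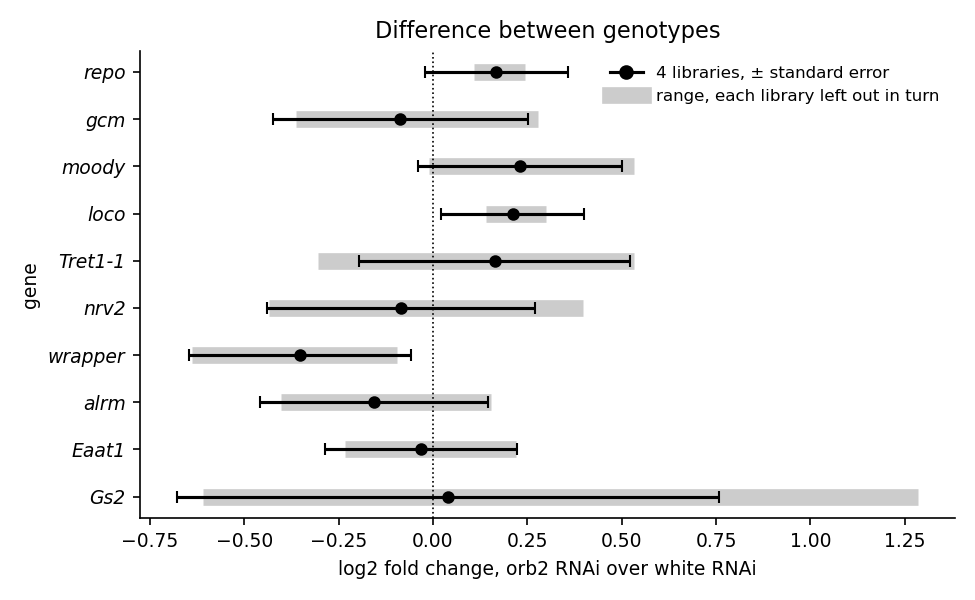
Log2 fold change of each gene, *orb2* RNAi over *white* RNAi, from 4 libraries (point, with the standard error as a bar) and its range when each library was left out in turn (gray band). The points run from -0.35 for *wrapper* to 0.23 for *moody*, and the band crosses 0 for 7 of the 10 genes.

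The fold changes of most of the 10 genes turned on single libraries. When each library was left out in turn, 7 of the 10 changed sign and 3 did not, namely *repo*, *loco* and *wrapper*. *Gs2* was at -0.61 without sample 1 labelled *white* RNAi, at -0.56 without sample 2 labelled *orb2* RNAi and at 1.28 without sample 2 labelled *white* RNAi. *moody* was at 0.53 without sample 1 labelled *white* RNAi, where its unadjusted p passed 0.05 and its adjusted p was 0.157 (edgeR). In that fit 4102 of 14167 features (28.95%) had an unadjusted p under 0.05, and *moody* was the only one of the 10 genes to do so. None of the 10 genes was called in any of these fits, some of which called other features.

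Sample number separated several of the 10 genes more clearly than genotype did. For 5 of them, *Gs2*, *nrv2*, *alrm*, *wrapper* and *Eaat1*, both libraries numbered 2 lay above both numbered 1, as did 22.3% of all features, and 0 of the 10 lay the other way, as did 21.4% of all features. Sample 2 exceeded sample 1 in both genotypes for 6 of the 10, with *repo* as the sixth, and for 29.0% of all features. The fold of sample 2 over sample 1 was 2.05 (*orb2* RNAi) and 3.75 (*white* RNAi) for *Gs2*. It was 1.30 and 1.80 for *nrv2*, 1.389 and 1.481 for *alrm*, 1.46 and 1.37 for *wrapper*, and 1.21 and 1.38 for *Eaat1*, in the same order. The 2 within-genotype ratios share no library, but the numbers are only names of samples in the labels, which do not say whether pools of one number were dissected or extracted together. They are therefore given as a description, without a test.

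**Figure D4:**
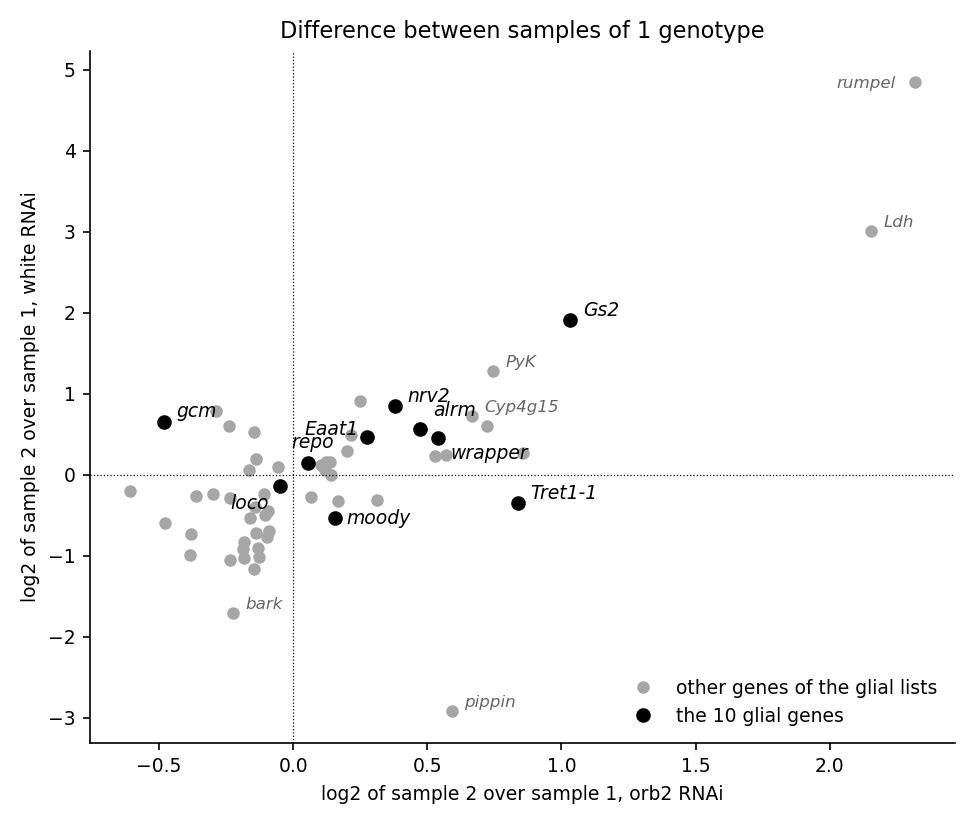
Log2 ratio of sample 2 over sample 1 among libraries labelled *orb2* RNAi (horizontal) and *white* RNAi (vertical), with the 10 glial genes in black and other tested genes of the glial lists in gray, leaving out *Tret1-2*, which had 0 counts in 1 library. *Gs2* lies at 1.03 and 1.91, *Ldh* and *rumpel* lie further out in the same direction, and *gcm*, *moody* and *Tret1-1* fall on opposite sides of 0 in the 2 genotypes.

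Scaling between libraries plays no part in ratios to *repo* within each library. By these ratios sample 2 again exceeded sample 1 under both labels for *Gs2*, *nrv2*, *alrm*, *wrapper* and *Eaat1*. *Gs2* was 2.96 times *repo* in sample 2 and 1.505 times in sample 1 labelled *orb2* RNAi, and 3.69 times and 1.09 times in samples 2 and 1 labelled *white* RNAi. *nrv2* was 2.72 and 2.17 times *repo* in samples 2 and 1 labelled *orb2* RNAi, and 3.56 and 2.198 times in those labelled *white* RNAi. For *wrapper* the ratios were 1.18 and 0.840, and 1.59 and 1.29. For *wrapper*, sample 2 labelled *orb2* RNAi was thus below sample 1 labelled *white* RNAi, and the sample numbers overlapped. *loco* kept close to *repo* throughout, between 0.921 and 1.13 times its level.

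Exon length also separated the libraries. Across 10545 features the log2 ratio of sample 2 over sample 1 fell with exon length, with a Spearman's rho of -0.195 among libraries labelled *orb2* RNAi and -0.557 among those labelled *white* RNAi, given as a description across genes of the same libraries. Of the 5 genes that were higher in both samples numbered 2, *alrm* (1717 bases of exon), *wrapper* (1977) and *Gs2* (2231) are among the 4 shortest of the 10. With each library's length trend taken out, *Gs2* remained higher in sample 2, by 0.93 and 1.88 on the log2 scale under *orb2* and *white* RNAi. Sample 2 then exceeded sample 1 in both genotypes for 7 of the 10 genes, beside 25.6% of 13040 features adjusted in the same way. The 7 include *loco*, which changed sign with the adjustment, from -0.047 and -0.144 to 0.025 and 0.516. They also include *repo*, at only 0.016 under *orb2* RNAi.

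Of the 50 tested genes of the glial lists outside the 10, 12 had both samples numbered 2 above both numbered 1 and 16 had them below, beside 22.3% and 21.4% of all features. The classes are described in turn, without a test between them. In the cortex glia list, *Cyp4g15*, a cytochrome P450, was at 116.6 and 130.1 CPM in the samples numbered 2 labelled *orb2* and *white* RNAi, against 73.4 and 78.6 CPM in those numbered 1. *zyd*, an ion exchanger of cortex glia, was at 119.2 and 133.7 CPM in the samples numbered 2 and at 82.6 and 113.6 CPM in those numbered 1. Of the 4 genes of that list, which include *wrapper*, 3 were higher in both samples numbered 2 and *spz3*, at 7.37 CPM or less, was lower.

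Among 10 tested genes of astrocyte-like and neuropil glia, both libraries numbered 2 lay above both numbered 1 for 6 and below for 2. Beside *Gs2*, *alrm* and *Eaat1*, the 6 included *Gat*, the GABA transporter of astrocyte-like glia, with 68.3 and 70.0 CPM in samples 2 labelled *orb2* and *white* RNAi and 41.4 and 46.2 CPM in samples 1. *Obp44a*, an abundant odorant-binding protein, was at 4803 and 8562 CPM against 4038 and 4552 CPM in the same order. *rumpel*, a solute transporter of ensheathing glia, was at 11.7 and 11.9 CPM against 2.34 and 0.415 CPM. The 2 that lay the other way were *Eaat2*, the paralog of *Eaat1*, and *htl*, a receptor for fibroblast growth factors.

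Of 6 tested genes that feed glycolysis in glia, 3 were higher in both samples numbered 2 and 1 was lower in both. *Ldh*, lactate dehydrogenase, was at 138.7 and 112.7 CPM in the samples numbered 2 labelled *orb2* and *white* RNAi, against 31.2 and 14.0 CPM in those numbered 1. *PyK*, pyruvate kinase, was at 405.0 and 431.5 CPM in the samples numbered 2 and at 241.4 and 177.8 CPM in those numbered 1. *Treh*, which splits trehalose, was also higher in both samples numbered 2, while *Bsg* was lower in both and *Tret1-1* and *Sln* were divided. These enzymes are used outside glia too. *chk*, a monocarboxylate transporter of glia, had 0 counts in each library and was not tested. If its reads were counted like those of other genes, this allows up to 0.0914 CPM in the shallowest library. Whether its reads were lost in counting was not examined, so absence of *chk* RNA cannot be told from these counts.

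Genes of the barrier's septate junctions did not share the direction of *nrv2*. Of 16 tested, *nrv2* alone had both samples numbered 2 above both numbered 1, 4 lay below and the others overlapped. The adhesion protein *Nrx-IV* was at 371.1 and 245.3 CPM in samples 2 labelled *orb2* and *white* RNAi, against 421.3 and 499.4 CPM in samples 1. *bark* was at 90.3 and 28.6 CPM against 105.6 and 93.3 CPM. The engulfment receptor *drpr* was likewise lower in both samples numbered 2, at 173.8 and 126.2 CPM against 185.7 and 214.3 CPM, as were all 4 genes of fibroblast growth factor signalling compared within each genotype. Most of these genes have roles outside glia. Among the septate junction genes, exon length ran from 1033 bases for *crok* to 10223 for *bark*. *crok* was at 33.7 and 45.4 CPM in samples 2 labelled *orb2* and *white* RNAi, against 39.8 and 30.0 CPM in samples 1. The part of exon length in the values of this list was not tested.

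**Figure D5:**
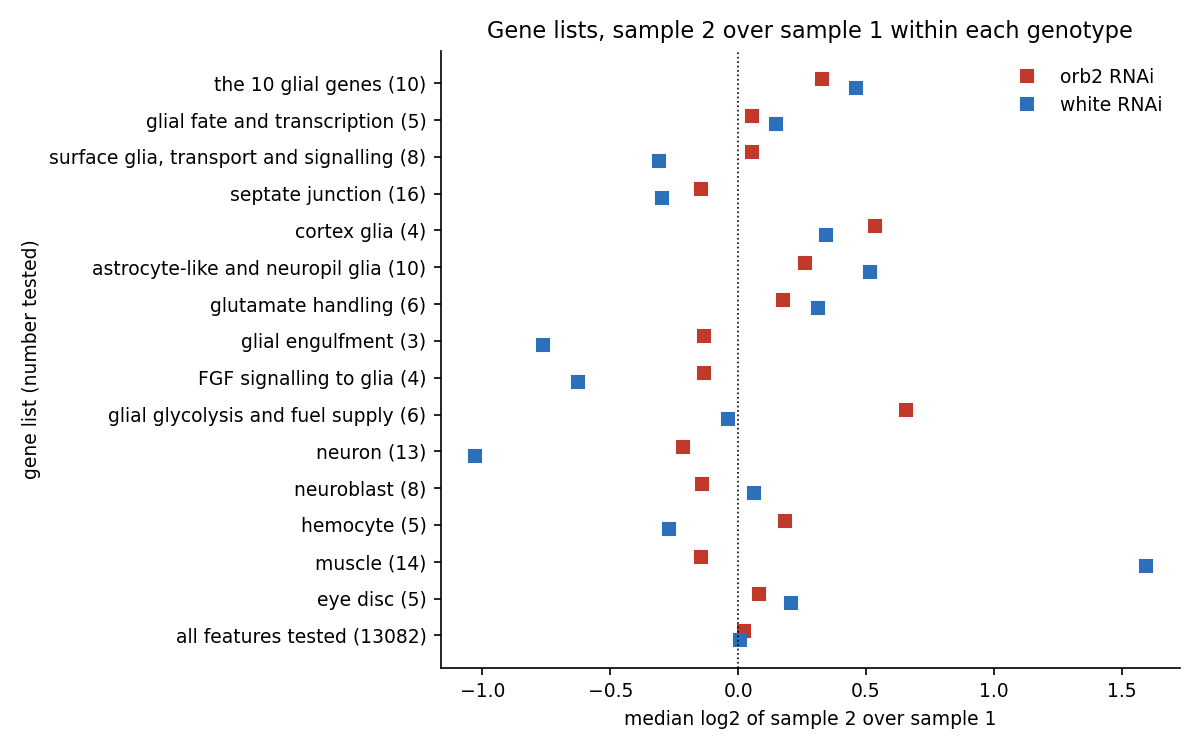
Median log2 ratio of sample 2 over sample 1 for the gene lists, with red squares for *orb2* RNAi and blue squares for *white* RNAi and the number of tested genes in brackets. The lists of paralogs and of fat body genes are not shown, and fat body had medians of 2.10 and -3.63 in the same order. The 10 glial genes lie at 0.33 and 0.46, the cortex glia list at 0.54 and 0.34, the neuron list at -0.22 and -1.03, and all features tested at 0.02 and 0.01.

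Neuron markers also differed by sample number. Their summed level over 13 genes was 3358 and 2581 CPM in samples 2 labelled *orb2* and *white* RNAi, against 3897 and 4750 CPM in samples 1, and 10 of the 13 had both samples numbered 2 below both numbered 1. *Gad1*, which makes the transmitter GABA, ran the other way, at 140.8 and 111.1 CPM in samples 2 and 71.6 and 68.8 CPM in samples 1. The 13 genes are long, from 3684 bases of exon for *Gad1* to 16309, beside a median of 2049 over tested protein-coding features. Across all features, as given above, the ratio of sample 2 over sample 1 fell with exon length. Lists of other cells were mixed, with both samples numbered 2 above for 2 and below for 1 of 8 neuroblast genes, above for 2 and below for 0 of 14 muscle genes, above for 1 and below for 2 of 5 hemocyte genes, and above for 0 and below for 2 of 6 fat body genes. The 10 glial genes summed to 1348 and 1473 CPM in samples 2 and to 998 and 922 CPM in samples 1. The part of exon length, of the neuron share, of RNA quality or of collection in these values was not tested.

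Between the genotypes, the glial lists held no called gene in either direction. Over the 50 tested genes of the glial lists that are not among the 10, edgeR's test called 0 higher and 0 lower, 0 had an unadjusted p under 0.05, and the median log2 fold change was 0.096, beside 0.022 over all features. The median was 0.28 for the 16 septate junction genes, 0.19 for the 8 surface glia genes, -0.21 for the 4 cortex glia genes and -0.06 for the 10 astrocyte-like and neuropil genes. With each library left out in turn these medians ran from 0.17 to 0.54, 0.02 to 0.34, -0.53 to -0.03 and -0.44 to 0.19, in the same order. With the exon length trend as an offset the septate junction median was 0.13 and the surface glia median 0.044. Each library labelled *orb2* RNAi exceeded each labelled *white* RNAi for 11 of those 50 genes, beside 18.5% of all features. It lay below for 4 of the 50, beside 11.7%. Of the 16 septate junction genes, 6 lay above in this way and 1, *pck*, lay below. The 6 included *vari*, a scaffold protein, at 127.2 and 118.2 CPM against 95.6 and 67.6 CPM. Its log2 fold change was 0.59 (standard error 0.248, adjusted p = 0.9998 by edgeR). *e*, the *ebony* enzyme of neuropil glia, lay below, at 12.4 and 14.3 CPM in samples 1 and 2 labelled *orb2* RNAi and 18.3 and 22.5 CPM in those labelled *white* RNAi, and its log2 fold change was -0.61 (standard error 0.272, adjusted p = 0.9998 by edgeR).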

How the data were processed

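Per the labels and the study's methods, polyA RNA of 4 brain pools was sequenced as paired reads. The authors trimmed reads with TrimGalore!, aligned them with HISAT2 to BDGP6.32, counted them per feature with featureCounts and deposited raw counts, without normalization or pooling. Strand, pair and multi-mapping settings are not given in the sources used here, so counts of overlapping or antisense genes are uncertain. Groups came from sample titles. No source says that the pools of one genotype came from separate cultures, so p-values measure the spread between these samples.

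Counts were scaled by TMM, filtered with filterByExpr and tested by edgeR 4.0.16's quasi-likelihood test in R 4.3.3 (limma 3.58.1) over all features without a block, with Benjamini-Hochberg adjustment. Alternatives were DESeq2 1.42.0, other normalizations, filters and thresholds, a block, an exon length offset (lowess span 0.3) and each library left out. The main edgeR fit, the fit with the exon length offset and DESeq2 were tested on simulated data first, and the other alternatives were not. The simulated spread between replicates (dispersion) was lower than in these data, where edgeR's common value was 0.355 and the median per feature 0.140. The simulations therefore do not show how many true differences the tests could find here. Exon lengths and positions came from Ensembl release 115 (BDGP6.54), of the same assembly as BDGP6.32 in a later annotation, and 99.7% of tested features had a length.

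The 10 genes, the gene lists and the rules were chosen with earlier results of these data known. Named genes are the 10, *orb2*, genes of the glial lists and paralogs, genes that share exon bases with these, and *Gad1* of the neuron list. The rule for naming features patterned like *repo* required a log2 range over 0.5, and *repo* had 0.272, so none is named. *CG4797*, *CG9657* and *Pyk* of the lists were matched as *pippin*, *rumpel* and *PyK*, and *AANAT1* was not used here. Of 17869 FlyBase gene identifiers, 17790 matched a symbol.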

Additional observations from a re-analysis of the deposited data

How the results depend on the processing

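The 10 genes were called in neither direction under any alternative, and their adjusted p ran from 0.157 to 1.0. Counts over all features moved more. DESeq2 without shrinkage called 87 higher and 40 lower, and leaving out each library in turn gave 0 to 91 higher and 0 to 51 lower. Without sample 1 labelled *orb2* RNAi these were 91 and 45, without its sample 2 they were 28 and 51, and without sample 1 labelled *white* RNAi 0 and 1. The cause was not tested. A lone sample is then assumed to vary like the other group. *Gs2* turned to -0.033 under upper-quartile scaling. With libraries left out, log2 fold changes ran from -0.61 to 1.28 for *Gs2*, -0.23 to 0.22 for *Eaat1*, -0.31 to 0.53 for *Tret1-1*, -0.40 to 0.15 for *alrm*, -0.36 to 0.28 for *gcm*, -0.0097 to 0.53 for *moody* and -0.43 to 0.40 for *nrv2*. Counts of genes whose groups did not overlap were recomputed under the other normalizations only.

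The numbers 1 and 2 are shared by both labels, and deviations of same-numbered samples had a Pearson r of 0.204 across 10545 features. With 2 pairs this does not show that they are paired. A fit with the replicate block called 62 features higher and 11 lower, and 0 of the 10 genes.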
